A study of Mus musculus with 4 samples.

Results

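Transcripts of 8 enzymes of amine, tryptophan and glutamine metabolism were followed through the luminal epithelium of the mouse mammary gland by single cell RNA-sequencing. The genes were *Aoc1*, *Ido1*, *Kynu*, *Tph1*, *Ddc*, *Maoa*, *Maob* and *Glul*, 8 of the 52636 genes in the table, each found once by its symbol. They were selected on measured values, since earlier results of the same cells had shown that several of them were found mainly in mature luminal cells. Their levels by class and by cluster are therefore a description and were not tested.

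Luminal cells had been sorted by FACS from the thoracic and abdominal glands of C57BL/6N mice aged 6 weeks. The wild-type group (WT) was ErbB3+/+;MMTV-Cre and the mutant group was ErbB3V943R/V943R;MMTV-Cre, so both groups carried MMTV-Cre, a Cre transgene that acts in mammary epithelium. The mutant allele is a conditional knock-in at the native *Erbb3* gene, which encodes a receptor that signals through dimers with other ERBB receptors, and the change alters the surface through which ERBB3 activates its partner kinase. Glands of 3 mice were pooled for each genotype and each pool was sequenced as 2 libraries, here called WT A, WT B, mutant A and mutant B. With 1 pool per genotype there is no replicate of a genotype. Pool and genotype cannot be told apart, and no p-value was computed. The table held 18638 WT and 13801 mutant cells with a class and cluster for each: luminal progenitor (LP, clusters 1 and 2), luminal intermediate (LI, cluster 3), mature luminal (ML, clusters 4 to 11) and rare cells (clusters 12 and 13).

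The 8 enzymes belong to pathways that make or remove small nitrogen compounds. Diamine oxidase, the product of *Aoc1*, breaks down histamine and putrescine outside the cell, and the monoamine oxidases encoded by *Maoa* and *Maob* break down serotonin and related amines on mitochondria. Tryptophan can enter the kynurenine route through IDO1 or the serotonin route through TPH1, whose product is turned into serotonin by the decarboxylase DDC, and serotonin made by mammary epithelium is known as a local regulator of milk secretion. Glutamine synthetase, the product of *Glul*, joins ammonia to glutamate. LP cells are known as precursors of the milk-secreting lineage, and ML cells as the hormone-sensing luminal cells.

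In the GENCODE annotation of genome build GRCm38, *Aoc1* (ENSMUSG00000029811) lies on chromosome 6 from 48872896 to 48909188 on the plus strand. *Ido1* (ENSMUSG00000031551) lies on chromosome 8 from 24584136 to 24597009 on the minus strand, 7802 bases from its paralog *Ido2*. *Tph1* (ENSMUSG00000040046) spans chromosome 7 from 46644641 to 46672537 on the minus strand, and *Kynu* (ENSMUSG00000026866) spans chromosome 2 from 43555329 to 43682715 on the plus strand. *Maoa* (ENSMUSG00000025037) and *Maob* (ENSMUSG00000040147) are neighbours on chromosome X, from 16619698 to 16687818 on the plus strand and from 16709282 to 16817366 on the minus strand, with 21463 bases between them. *Ddc* (ENSMUSG00000020182) spans chromosome 11 from 11814101 to 11898144 on the minus strand. *Glul* (ENSMUSG00000026473) spans chromosome 1 from 153899944 to 153909723 on the plus strand and overlaps *Mir8114* on the same strand, to which 767 unique molecular identifiers (UMIs, tags that count captured transcripts) were assigned against 530480 for *Glul*.

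Promoter windows of 300 bases, from 250 before to 50 after a start site, were read from RefSeq for GRCm38.p6, and 5 of the 8 genes had at least 1. The sequences below are those of the genes, among the ones with a window, that had the highest ratio of ML to LP level in the WT pool. For *Aoc1* and *Tph1* the start site shown is the one at which 2 coding GENCODE transcripts begin within 50 bases. They run 5′ to 3′ on the strand of the gene, at chr6:48904736-48905035 (plus), chr7:46667328-46667627 (minus) and chr1:153899679-153899978 (plus), with motif matches in capitals.
Aoc1: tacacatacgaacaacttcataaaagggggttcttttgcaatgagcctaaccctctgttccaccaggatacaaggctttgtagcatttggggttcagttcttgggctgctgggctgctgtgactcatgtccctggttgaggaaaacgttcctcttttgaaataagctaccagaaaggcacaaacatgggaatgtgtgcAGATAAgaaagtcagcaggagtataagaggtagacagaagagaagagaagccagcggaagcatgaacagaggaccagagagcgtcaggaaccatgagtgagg
Tph1: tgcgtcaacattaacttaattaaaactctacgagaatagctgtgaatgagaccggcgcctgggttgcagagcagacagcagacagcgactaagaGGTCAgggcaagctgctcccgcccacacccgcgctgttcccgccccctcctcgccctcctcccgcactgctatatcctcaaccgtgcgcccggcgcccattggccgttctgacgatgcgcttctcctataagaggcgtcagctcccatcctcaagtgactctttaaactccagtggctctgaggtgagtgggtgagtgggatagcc
Glul: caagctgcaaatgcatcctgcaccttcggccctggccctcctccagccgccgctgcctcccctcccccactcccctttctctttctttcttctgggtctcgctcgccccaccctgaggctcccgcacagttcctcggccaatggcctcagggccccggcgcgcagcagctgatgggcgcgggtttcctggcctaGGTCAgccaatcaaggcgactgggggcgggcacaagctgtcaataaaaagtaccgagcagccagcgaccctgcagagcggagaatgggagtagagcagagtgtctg

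Both strands were searched for GGTCA, the core of nuclear receptor sites. They were also searched for AGATAA, which is bound by GATA factors, for TTCNNNGAA, bound by STAT factors, and for TGTTTAC, bound by forkhead factors. The *Aoc1* window held 1 match to the second motif, which began 52 bases before the start site, and the *Tph1* and *Glul* windows each held 1 match to the receptor core, beginning 156 and 56 bases before theirs. None of the 3 windows matched the STAT or forkhead motif. Of 32851 RefSeq promoter windows, 40.5% held the receptor core, 11.2% the GATA-factor motif, 8.30% the STAT motif and 3.65% the forkhead motif. The libraries read 3′ ends of transcripts and do not show which start site was used.

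The 4 libraries held 30019745 to 38009351 UMIs, and the median UMI count per cell was 3400 in WT and 3840 in mutant cells. Levels are UMIs of a gene per 1000000 UMIs of the same cells (CPM). Brackets give 95% intervals, exact Poisson or exact binomial, which cover counting error only. *Kit*, on the luminal progenitor marker list, was at 215 to 268 CPM in LP cells and 2.28 to 3.74 CPM in ML cells of the libraries, while *Prlr*, on the mature luminal list, was at 232 to 263 CPM in LP and 1858 to 2167 CPM in ML. LI cells carried both lists and had a median of 5620 UMIs in WT, against 2018 in LP and 3508 in ML. No doublets were removed, and whether some LI droplets held more than 1 cell was not tested. Between 71 and 111 cell barcodes were shared by any pair of libraries. In ML cells *Erbb3* itself was at 59.3 and 61.1 CPM in WT A and B and at 27.1 and 28.6 CPM in mutant A and B. In the paper's design the conditional allele, before Cre acts, ends in a human growth hormone 3′ untranslated region. Libraries of 3′ ends may not count such transcripts as *Erbb3*, and the part of this in the difference was not tested.

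*Aoc1*, *Ido1*, *Tph1* and *Glul* shared one pattern, with low levels in LP cells and high levels in ML cells. *Aoc1* was at 59.0 and 48.4 CPM in LP cells of WT A and B and at 669 and 679.9 CPM in their ML cells. *Ido1*, which encodes the first enzyme of the kynurenine route, was at 63.7 and 37.9 CPM in LP and 595 and 613 CPM in ML. *Glul* was at 556 and 512 CPM in LP and 4607 and 4688 CPM in ML. In each case both ML values lay far above both LP values. The log2 ratio of ML to LP in the WT pool was 3.66 [3.53, 3.80] for *Aoc1*, 3.59 [3.45, 3.73] for *Ido1*, 3.36 [2.87, 3.90] for *Tph1* and 3.12 [3.08, 3.17] for *Glul*. LI cells lay between the classes, with *Aoc1* at 501 CPM, *Ido1* at 361 CPM, *Tph1* at 21.8 CPM and *Glul* at 3248 CPM in WT.

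The share of LP cells with a UMI of these genes was set beside that in the rare cells, which have no luminal class. After each cell was thinned to 1000 UMIs, 3.68% of WT LP cells had an *Aoc1* UMI, against 4.65% in cluster 12 and 6.02% in cluster 13, the rare cells. The shares of the rare cells rest on few cells, since the WT pool held 43 in cluster 12 and 83 in cluster 13. Cluster 12 carried the fibroblast list at 5632 CPM and the endothelial list at 2210.1 CPM in WT, and cluster 13 carried the immune list at 19793 CPM. Without thinning the shares were 8.46% in LP, 9.30% in cluster 12 and 19.3% in cluster 13, at median depths of 2018, 1985 and 1899 UMIs. *Ido1* gave 3.84% of thinned LP cells against 11.6% and 13.3%, and *Glul* 32.7% against 44.2% and 38.6%. Immune, fibroblast and endothelial cells can themselves carry *Ido1* or *Glul*, so these are not pure background levels. *Prlr*, on the mature luminal list, was at 561 CPM in cluster 12 and 796 CPM in cluster 13 of the WT pool, against 262 CPM in LP cells. In the mutant pool these levels were 57.3, 718 and 240 CPM. Whether the *Aoc1* UMIs of the rare cells measure free RNA alone was not tested. In the mutant pool 0 of 33 cells of cluster 12 had an *Aoc1* or *Ido1* UMI, a count that allows a share of up to 9.09%, while 5.15% and 5.29% of thinned mutant LP cells had one. How many of the LP UMIs came from free RNA was not tested. *Tph1* was found in 0.381% of thinned WT LP cells and 1.20% of those of cluster 13, and 0 of 43 cells of cluster 12, where a limit of 3 counts allows a share of up to 6.98%. The thinned shares in WT ML cells were 27.0% for *Aoc1*, 26.7% for *Ido1*, 2.48% for *Tph1* and 83.2% for *Glul*.

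**Figure D1:**
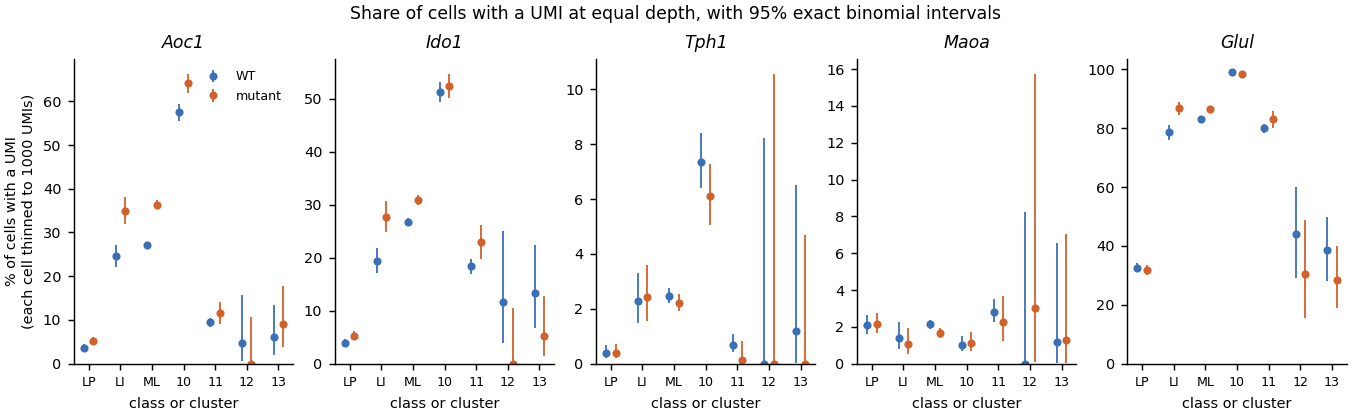
Percent of cells with at least 1 UMI of *Aoc1*, *Ido1*, *Tph1*, *Maoa* or *Glul* after thinning every cell to 1000 UMIs. Values are by class and for clusters 10 to 13, in the WT and the mutant pool, and bars are exact 95% binomial intervals. *Aoc1* was found in 27.0% of WT and 36.3% of mutant ML cells, and in 57.5% and 64.2% of the cells of cluster 10.

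Within the ML class the 4 enzymes were highest in the same cluster. Cluster 10 held 14.5% of all WT UMIs but 53.8% of the *Tph1*, 42.3% of the *Aoc1*, 39.8% of the *Ido1* and 31.9% of the *Glul* UMIs. *Aoc1* fell in the order of clusters 10 (1706 CPM in WT), 4 (770.2 CPM), 8 (737 CPM), 3, 9, 7, 5, 6, 11 (156 CPM), 2 and 1 (50.6 CPM). The libraries overlapped between neighbours 4 and 8, 3 and 9, and 9 and 7, and lay apart at every other step. *Ido1* ran from 1412 CPM in cluster 10 through clusters 8, 4, 9, 7, 3, 11, 5, 6 and 2 to 49.6 CPM in cluster 1, with overlap between 8 and 4, 4 and 9, 3 and 11, and 2 and 1. Cluster 11 ranked low for *Aoc1* but carried *Ido1* at 358 CPM, level with LI cells.

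*Tph1*, the gene of the rate-limiting enzyme of serotonin synthesis outside the nervous system, was at 125 CPM in cluster 10 of the WT pool and 40.0 CPM in cluster 4, the next in order, and the libraries of those clusters did not overlap. It was at 13.9 CPM in cluster 5 and 6.59 CPM in cluster 11. *Glul* was at 8855 CPM in cluster 10 and was found in 98.9% of its thinned WT cells. The neighbours 11, 9 and 7 in the *Glul* order overlapped, as did 2 and 1, and the rest lay apart.

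**Figure D2:**
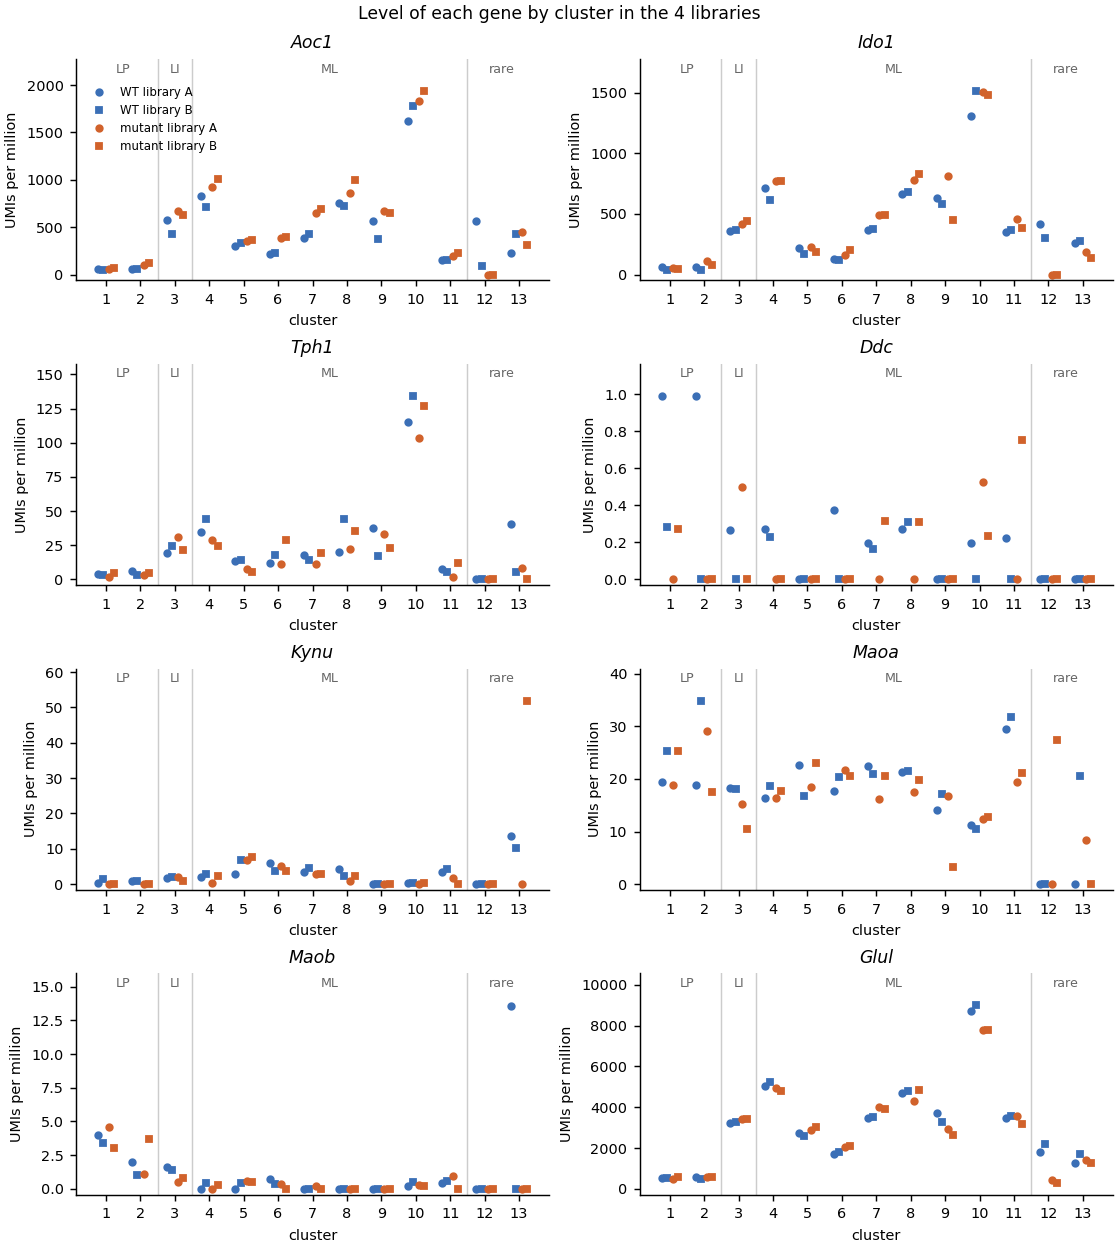
Level of each enzyme, as CPM on a linear axis, in clusters 1 to 13; each point is 1 library, in blue for WT and orange for mutant. *Aoc1*, *Ido1*, *Tph1* and *Glul* were highest in cluster 10, and *Maoa* had its lowest WT level of the luminal clusters there, at 10.9 CPM.

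*Maoa* had another order of clusters. Its level was 23.6 CPM in LP and 20.1 CPM in ML cells of the WT pool, a log2 ratio of -0.23 [-0.45, -0.01] that turned to 0.050 without WT library B. By cluster it was highest in 11 (30.7 CPM) and lowest in 10 (10.9 CPM), and of the neighbours in between only 9 and 10 lay apart. Cluster 10 held 7.77% of its WT UMIs and cluster 11 held 19.5%, while these clusters held 14.5% and 12.9% of all UMIs. *Maob* was rare, with 54 UMIs in the WT pool and 43 in the mutant pool. Its level was 3.17 CPM in LP and 0.264 CPM in ML cells of the WT pool (27 and 15 UMIs), a log2 ratio of -3.58 [-4.60, -2.62] that was -4.24 without WT library B, although the gene next to it on chromosome X was nearly even across these classes. The share of cells with a *Maob* UMI was 0.849% in WT LP cells and 1.20% in cluster 13, where it rested on 1 cell.

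*Kynu*, whose product cleaves kynurenine metabolites downstream of IDO1, did not follow *Ido1* through the clusters. It had 202 UMIs in the WT pool and was at 4.996 CPM in cluster 5, 4.81 CPM in cluster 6, 4.005 CPM in cluster 7 and 3.93 CPM in cluster 11. In cluster 10, where *Ido1* was highest, 4 UMIs gave 0.379 CPM. The log2 ratio of cluster 10 to cluster 11 in WT was -3.38 [-5.33, -1.90] for *Kynu* and 1.98 for *Ido1*. The unthinned share of cells with a *Kynu* UMI was 1.03% in WT ML cells and 2.41% in cluster 13, where 2 of 83 cells had one. *Ddc*, which makes serotonin from the TPH1 product, was close to the limit of detection, with 15 UMIs in 18638 WT cells and 10 UMIs in 13801 mutant cells. Of 877 WT cells with a *Tph1* UMI, 1 also had a *Ddc* UMI, as did 1 of 667 mutant cells. Detection of both in 1 cell was thus rare, with *Ddc* at 25 UMIs in all cells.

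**Figure D3:**
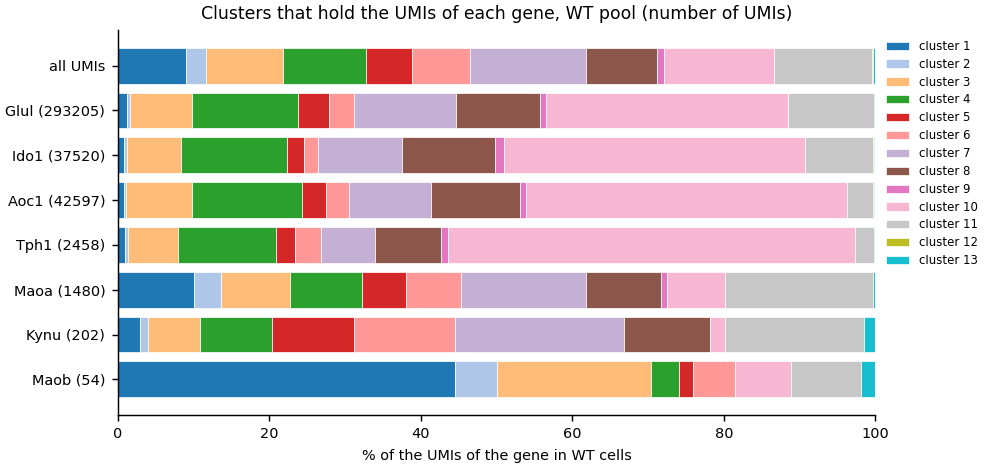
Percent of the WT UMIs of each enzyme except *Ddc* that lay in each cluster, beside the same for all UMIs. Cluster 10 held 53.8% of *Tph1* and 42.3% of *Aoc1* UMIs but 7.77% of *Maoa* UMIs, against 14.5% of all UMIs.

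Even within ML cells *Aoc1* and *Ido1* were unevenly spread. In thinned WT ML cells the 10% of cells with most UMIs of a gene held 66.5% of the *Aoc1* and 67.6% of the *Ido1* UMIs, and 31.2% of the *Glul* UMIs. The means were 0.640, 0.622 and 4.58 UMIs per cell. This share depends on the mean, so it does not compare the spread of genes at unlike levels. For *Tph1* and *Maoa*, found in fewer than 10% of these cells, it was 100%. The variance of UMIs per cell divided by the mean was 3.32 for *Aoc1*, 3.58 for *Ido1*, 2.54 for *Tph1*, 4.35 for *Glul* and 1.04 for *Maoa*. For *Maoa*, at a mean of 0.022 UMIs per cell, this quotient was close to 1, its value for random sampling. The quotient nears 1 as the mean falls, so it does not show whether *Maoa* was evenly spread. *Aoc1* was found in 42.7% of thinned WT ML cells with an *Ido1* UMI and in 21.3% of those without one. Within cluster 10 the shares were 59.3% and 55.5%, and in cluster 11 they were 9.90% and 9.32%, whereas in cluster 7 they were 33.8% and 16.5%. *Tph1* was found in 5.14% of ML cells with an *Aoc1* UMI and 1.49% of those without, but in 8.01% and 6.45% within cluster 10. These pairs were chosen after the values were seen.

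Across clusters 1 to 11 of the WT pool the genes most like each enzyme were ranked by Pearson's r of log2(CPM + 1) among 12334 genes. These are descriptions over 11 points that come from the same libraries and from clusters built on the same cells. *Aoc1* was closest to *Gm14005* (r = 0.986), *Padi4* (0.985) and *Gm7932* (0.980), and *Ido1* to *Slc5a6* (0.994), *Prom2* (0.987) and *Syn2* (0.980). *Tph1* was closest to *Muc13* (0.973), *Gm14005* (0.969) and *Mall* (0.965), and *Glul* to *Ggt1* (0.992), *Fuca1* (0.989) and *Slc25a35* (0.983). *Maoa* had less close neighbours in *Mccc2* (0.871), *Gstt1* (0.839) and *Klf2* (0.825). *Kynu* was closest to *Rab38* (0.942), *Iscu* (0.936) and *Bri3bp* (0.934), with 0.698, 0.407 and 0.771 in the mutant pool. Pearson's r takes no account of the size of a change. In clusters 1, 10 and 11 of the WT pool *Iscu* was at 74.5, 76.9 and 84.4 CPM. *Kynu*, on few UMIs, was at 0.918, 0.379 and 3.93 CPM there. Among the enzymes r was 0.97 between *Aoc1* and *Tph1*, 0.94 between *Aoc1* and *Ido1*, and -0.86 between *Tph1* and *Maoa*. Several enzymes were selected as found mainly in ML cells, so r over clusters 1 to 11 partly reflects that choice. Over the 8 ML clusters alone r was 0.97, 0.83 and -0.90 for the same pairs.

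The genotypes were compared within classes and clusters to ask how the *Erbb3* change touched each luminal population. A gene was called higher or lower in the mutant when its pooled level differed at least 1.5-fold, both mutant libraries lay beyond both WT libraries, and the genotype with more held at least 50 UMIs. In ML cells 6 of the 8 enzymes had enough UMIs and 0 were called in either direction, against 2.86% of 15157 genes called higher and 1.57% called lower. With no minimum fold, both mutant libraries lay above WT for *Aoc1* and *Ido1*, as for 27.6% of all genes, and below WT for *Kynu*, *Maoa* and *Glul*, as for 26.7%. The median log2 ratio of the 6 enzymes was -0.09, and that of all genes tested was 0.0034.

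*Aoc1* was at 669 and 679.9 CPM in WT ML cells and at 851 and 915 CPM in mutant ML cells. The mutant values were both higher, with a log2 ratio of mutant to WT of 0.39 [0.37, 0.41], or 1.31-fold. The share of thinned ML cells with an *Aoc1* UMI was 27.3% and 26.8% in WT A and B and 36.1% and 36.6% in mutant A and B. *Aoc1* was above WT in 11 of 11 luminal clusters, with both mutant libraries above in 10 of them, which held for 3.52% of the 2274 genes with enough UMIs in every cluster. The ratio was smallest in cluster 10 (1706 to 1886 CPM, 0.14) and largest in cluster 2 (0.81), and it was 0.80 in cluster 6 and 0.72 in cluster 7. Cluster 11, low in *Aoc1*, held 2863 WT and 670 mutant cells, and without it the ML ratio was 0.24. With the mutant clusters weighted as in the WT pool it was 0.32.

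*Ido1* was at 595 and 613 CPM in WT and 697 and 689.7 CPM in mutant ML cells, again without overlap, a log2 ratio of 0.20 [0.18, 0.22]. Without cluster 11 it was 0.12. The mutant level was higher in 11 of 11 clusters, as for 8.71% of the 2274 genes. The libraries lay apart in 7 clusters, and 11.5% of those genes had both mutant libraries above WT in 7 or more. In cluster 10 *Ido1* was at 1412 CPM in WT and 1493 CPM in the mutant, and the libraries overlapped.

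In cluster 6, an ML cluster with high levels of the cycling marker list, both *Aoc1* and *Ido1* rose by the rule, where 2.11% of 9373 genes were called higher. *Aoc1* was at 216 and 232 CPM in WT A and B and at 381 and 402 CPM in mutant A and B. *Ido1* was at 125 and 121 CPM in WT and at 165 and 206 CPM in the mutant. Its log2 ratio of 0.59 was just past the 1.5-fold minimum. The thinned share of cluster 6 cells with an *Aoc1* UMI went from 13.5% in WT to 20.6% in the mutant. In cluster 7, *Aoc1* rose from 391 and 424 CPM to 649 and 692 CPM, a log2 ratio of 0.72 [0.67, 0.77], where 2.41% of 11047 genes were called higher. *Ido1* in cluster 7 was at 366 and 374 CPM in WT A and B and at 488 and 492 CPM in mutant A and B, short of the fold.

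Both genes were also called higher in cluster 2, the LP cluster with the cycling list, where 1.79% of 6430 genes were called. *Aoc1* was at 61.4 and 63.5 CPM in WT and 97.4 and 120.5 CPM in the mutant, and *Ido1* at 64.4 and 39.0 CPM and at 109 and 82.8 CPM. The shares of thinned cells in WT and mutant were 3.98% and 5.08% for *Aoc1* and 3.35% and 5.54% for *Ido1*. In cluster 13 they were 6.02% and 9.09% for *Aoc1* and 13.3% and 5.19% for *Ido1*, and in cluster 12 the mutant pool had 0 UMIs of both. The part of free RNA in these calls was not tested. In LP cells as a whole 4 enzymes were tested, 0 were called, and *Aoc1* alone had both mutant libraries above WT (53.4 to 75.7 CPM). Of 11219 genes tested in LP cells, 2.23% were called higher, 0.606% were called lower and 23.1% had both mutant libraries above WT.

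In LI cells 0 of the 5 enzymes tested were called, against 2.83% of 10525 genes called higher and 1.03% called lower. *Aoc1* was at 575 and 424 CPM in WT and 667 and 629 CPM in the mutant, and *Ido1* at 359 and 364 CPM and at 416 and 444 CPM. Together with *Glul* (3248 to 3422 CPM) these had both mutant libraries above WT, as had 23.2% of all genes. *Maoa* had both below, as had 22.5%, with 18.3 and 18.2 CPM in WT and 15.3 and 10.6 CPM in the mutant. LI cells also differed in depth, with median UMIs of 5620 in WT and 6850 in the mutant.

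**Figure D4:**
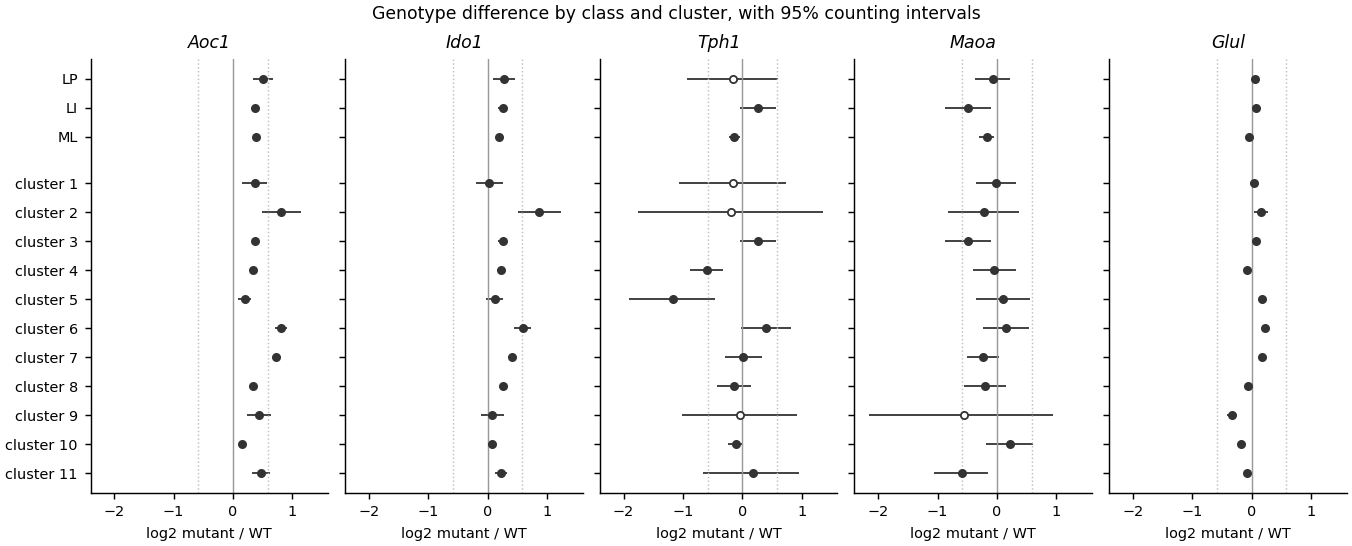
Log2 ratio of mutant to WT level of *Aoc1*, *Ido1*, *Tph1*, *Maoa* and *Glul* by class and cluster, with exact 95% counting intervals; open symbols have fewer than 50 UMIs and dotted lines mark 1.5-fold. *Aoc1* lay above 0 in all 11 luminal clusters, from 0.14 in cluster 10 to 0.81 in cluster 2.

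*Tph1* had no single direction, with a higher level in the mutant in 4 and a lower one in 4 of the 8 clusters with enough UMIs. In ML cells as a whole it was at 36.4 and 43.0 CPM in WT and 31.1 and 41.2 CPM in the mutant, and the libraries overlapped. The log2 ratio of -0.13 became 0.05 without mutant library A and -0.29 without cluster 11. In cluster 4 *Tph1* fell from 35.0 and 44.2 CPM to 28.7 and 24.1 CPM, where 1.41% of 9873 genes were called lower. Its log2 ratio there of -0.60 [-0.87, -0.33] was just past the 1.5-fold minimum. In cluster 5 *Tph1* fell from 13.5 and 14.2 CPM to 7.25 and 5.26 CPM on 61 and 24 UMIs, where 1.09% of 8359 genes were called lower. In cluster 10, which held 53.8% of its WT UMIs, *Tph1* was at 115 and 134 CPM in WT and 103 and 127 CPM in the mutant, with overlap. The highest ratio was 0.39 in cluster 6, from 12.05 and 17.6 CPM in WT to 10.9 and 28.6 CPM in the mutant, again with overlap. The summed cycling list in cluster 4 was at 33.6 and 39.6 CPM in WT and 65.9 and 74.1 CPM in the mutant, and its part in the *Tph1* difference was not tested.

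*Maoa* was at 19.999 and 20.15 CPM in WT and 16.8 and 18.7 CPM in mutant ML cells, a log2 ratio of -0.18 [-0.31, -0.04]. Without cluster 11, the cluster with its highest level, the ratio was -0.026. Inside cluster 11 *Maoa* fell from 29.5 and 31.8 CPM to 19.5 and 21.05 CPM, where 3.17% of 10223 genes were called lower. The log2 ratio of -0.59 [-1.06, -0.15], on 289 and 49 UMIs, was just past the 1.5-fold minimum. The unthinned share of ML cells with a *Maoa* UMI was 7.45% in WT and 7.82% in the mutant, whereas the thinned shares were 2.14% and 1.67%, mutant ML cells having a median of 4070 UMIs against 3508. *Kynu* was at 2.98 and 3.24 CPM in WT and 2.14 and 2.53 CPM in mutant ML cells, on 177 and 107 UMIs, a log2 ratio of -0.41 [-0.77, -0.06]. Leaving out cluster 11 gave -0.28 for *Kynu*.

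*Glul* was nearly level between genotypes, at 4607 and 4688 CPM in WT and 4478 and 4523 CPM in mutant ML cells. The libraries lay apart, but the log2 ratio was -0.05 [-0.06, -0.04]. In cluster 10 *Glul* was at 8716 and 8983 CPM in WT and 7781 and 7779 CPM in the mutant, a log2 ratio of -0.19, and in cluster 6 the ratio was 0.23. *Maob* and *Ddc* had 15 and 8 UMIs and 9 and 7 UMIs in WT and mutant ML cells, too few to compare.

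The fibroblast, immune, endothelial and mast cell lists were low in ML cells, and the fibroblast list differed by genotype. The summed fibroblast list of 5 genes was at 15.03 and 13.8 CPM in WT A and B and at 5.43 and 4.38 CPM in mutant A and B. The cycling list of 4 genes, which is no list of another cell type, was at 301 and 314 CPM in WT and 362 and 338 CPM in the mutant. The immune list was at 2.91 to 6.93 CPM and the endothelial list at 0.674 to 1.29 CPM, while the 4 genes of the mast cell list were at 0 in all libraries. The part of these differences in the enzyme levels was not tested.

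The wider pathways were counted with a list of 65 other genes, of which 37 had enough UMIs in ML cells. Of these 0 were called higher and 0 lower in the mutant, 8 had both mutant libraries above WT and 17 had both below. Among all genes tested in ML cells 2.86% were called higher and 1.57% lower, 27.6% had both mutant libraries above and 26.7% both below. The median log2 ratio of the 37 pathway genes was -0.02, and that of all genes tested was 0.0034. Of the 10 other kynurenine genes 3 were tested, and *Tdo2*, *Kmo*, *Aadat*, *Haao* and *Qprt* had 0 UMIs in WT ML cells. *Ido2*, the neighbour of *Ido1*, had 38 UMIs. Of the 19 genes of serotonin, catecholamine and histamine metabolism 12 had at most 3 UMIs in WT ML cells, among them *Tph2*, *Th*, *Hdc* and the serotonin transporter gene *Slc6a4*. The vesicular amine transporter gene *Slc18a1* had 77.

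The cofactor list, which holds the genes for tetrahydrobiopterin and pyridoxal phosphate supply, had both mutant libraries below WT for 6 of 7 genes, a direction found for 26.7% of all genes. *Gch1*, which encodes the first enzyme of tetrahydrobiopterin synthesis, was at 5.27 and 5.30 CPM in WT and 3.74 and 3.83 CPM in mutant ML cells, a log2 ratio of -0.48 that was under the fold. It was named, like *Sat1*, after its values were seen. The other cofactor genes with both mutant libraries below WT had smaller differences. Their log2 ratios were -0.10 for *Spr*, -0.13 for *Qdpr*, -0.17 for *Pdxk* and -0.19 for *Pcbd1* and *Pts*. No gene of this list was called. Of 10 polyamine genes tested 3 lay above and 3 below, against 27.6% and 26.7% of all genes. *Sat1*, which encodes the acetylating enzyme of polyamine catabolism, was at 102 and 104 CPM in WT and 139.6 and 125 CPM in the mutant, and *Oaz1*, which encodes an inhibitor of polyamine synthesis, at 118 and 112 CPM and at 157 and 143 CPM. Of 11 glutamine and glutamate genes 4 lay above and 3 below. The amino acid transporter genes *Slc38a2* and *Slc3a2* had, like *Oaz1*, some of the highest WT levels of the list. *Slc38a2* was at 132 and 138 CPM in WT and 137 and 149 CPM in the mutant, and its libraries overlapped. *Slc3a2* was at 132 and 134 CPM in WT and 123 and 129.9 CPM in the mutant, so both mutant values lay below WT, at a log2 ratio of -0.07.

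**Figure D5:**
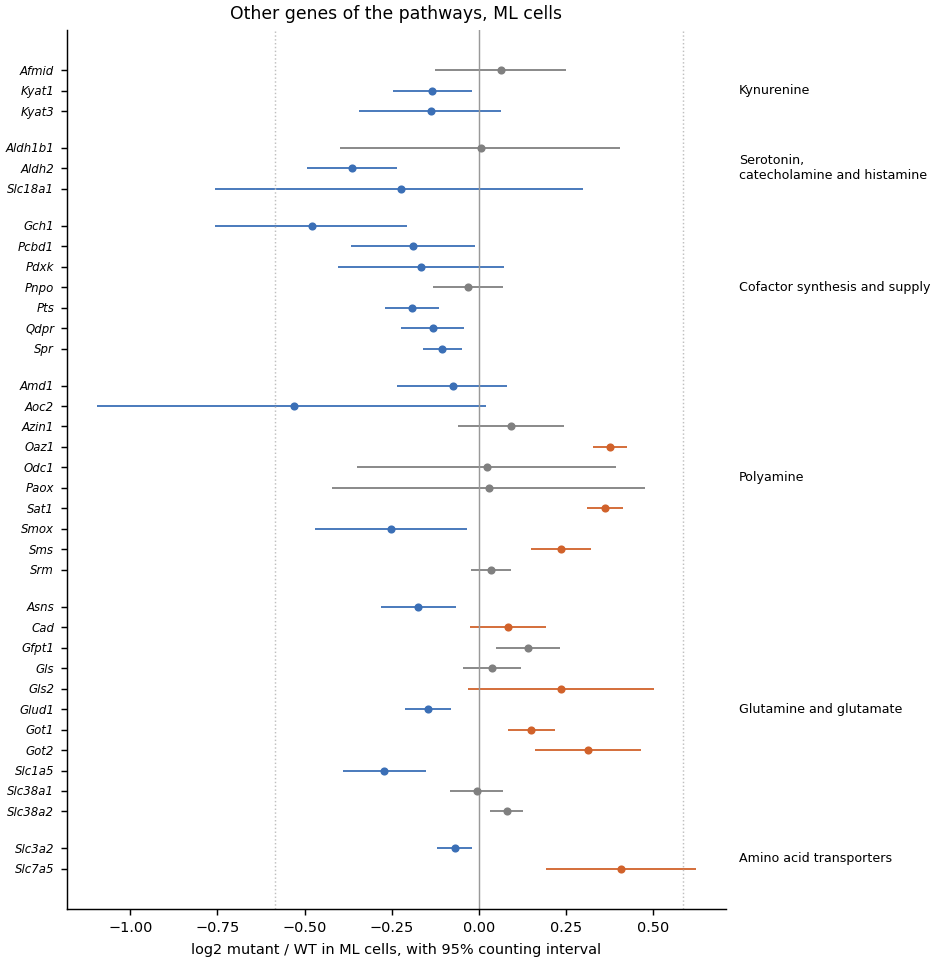
Log2 ratio of mutant to WT level in ML cells for 36 of the 37 other pathway genes with enough UMIs, with exact 95% counting intervals; orange marks genes with both mutant libraries above WT, blue both below, and grey overlap. 8 genes lay above, 17 below, and none reached 1.5-fold.

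Several pathway genes, named after their values were seen, also differed between classes in the WT pool. *Got1*, which encodes a cytosolic aspartate aminotransferase, had a log2 ratio of ML to LP of 2.48. *Aldh2*, which encodes a mitochondrial aldehyde dehydrogenase that acts on products of amine oxidation, had one of -3.38, from 234 CPM in LP to 22.4 and 22.7 CPM in the ML cells of WT B and A. Of the 37 genes 5 were more than 1 log2 unit higher in ML and 7 more than 1 log2 unit higher in LP, as were 1566 and 1727 of all 15157 genes tested.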

How the data were processed

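Cells were sequenced as droplet libraries on a 3′ tag chemistry, and the submitters' processing notes name CASAVA 1.8, bcl2fastq 2.20, GSNAP and build GRCm38. The deposited table gave 1 normalized signal value per gene and cell, with the authors' cluster and class of each cell. Dividing each cell by its smallest value above 0 gave whole numbers for 100% of 60853305 values within a tolerance of 0.02, and these were used as UMI counts.

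For each library and each class or cluster, a gene's UMIs were summed and scaled to the total of those cells. With 1 pool per genotype no test was made. Intervals at 95% were computed with the Clopper-Pearson method for shares of cells, the exact Poisson for a level and the exact binomial, given the sum of both UMI counts, for a ratio. The replicate numbers of the labels are not carried by the table, so libraries were named A and B. For shares, cells were thinned to 1000 UMIs. Cells with fewer were dropped, 45 in WT and 252 in the mutant. The libraries are 2 per pool of 3 mice, so their spread is technical.

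The genes, lists and rules were chosen with earlier results of these data known. Named were the 8 enzymes, the 4 pathway genes with the highest WT level, any pathway gene that was called (1 item under this rule is not reported here), and the 3 genes most correlated with each enzyme that had at least 200 UMIs. Other pathway genes were named after their values were seen. A count of 0 was given a limit of 3 counts. Of 52636 gene identifiers 52489 were found in GENCODE M21. Alternatives were other folds and UMI minima, TMM factors, the mean over cells, cell filters by depth, leaving out cluster 11 or clusters 2, 5 and 6, and leaving out each library. The code was tested on simulated data and ran in Python 3.11.15 with numpy 2.4.6, scipy 1.17.1, pandas 2.3.3 and matplotlib 3.10.9.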

Additional observations from a re-analysis of the deposited data

Results flagged for a closer look

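The ratio of mutant to WT level of *Maoa* went in opposite directions in different clusters. Of its 10 tested clusters, both mutant libraries lay above WT in clusters 6 and 10 and below WT in clusters 3, 7, 8 and 11. Over all genes in clusters 1 to 11, 21.5% of gene and cluster pairs lay above and 22.0% below. The *Maoa* log2 ratio was at most 0.21 in any tested cluster. In WT and mutant cells *Maoa* had 107 and 116 UMIs in cluster 6 and 115 and 102 UMIs in cluster 10. The log2 ratios of clusters 10 and 11 differed by 0.81. *Glul* lay above WT in clusters 2, 3, 5, 6 and 7 and below in clusters 4, 9 and 10, with a distance of 0.56 between clusters 6 and 9. By class *Glul* lay above WT in LI cells, as did 23.2% of genes, and below it in ML cells, as did 26.7%. Its log2 ratios in these classes were 0.12 apart. These differences were not tested, since each genotype was 1 pool.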

How the results depend on the processing

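No paired analysis was possible because the table names the libraries without the replicate numbers of the labels and no test was made. Leaving out cluster 11 moved the genotype ratio in ML cells (log2) from 0.39 to 0.24 for *Aoc1*, from 0.20 to 0.12 for *Ido1*, from -0.18 to -0.026 for *Maoa* and from -0.05 to -0.094 for *Glul*. The mean over cells gave 0.27 for *Ido1* and -0.011 for *Glul*, and TMM factors gave -0.072 for *Glul*. The other 65 values of the genotype ratio moved by less than 1 SD of the library pairs or the reach of the counting interval, whichever was larger. Among them, weighting clusters as in WT gave -0.58 for *Kynu*, which is beyond 1 SD. For the ratio of ML to LP in WT, the mean over cells gave 3.96 for *Aoc1*, 3.17 for *Kynu* and 3.38 for *Glul*, and leaving out clusters 2, 5 and 6 gave 3.91 for *Aoc1* and 3.28 for *Glul*. Without 1 WT library the ratio for *Maoa* ranged from -0.45 to 0.050, so its sign rests on library B, and without that library *Kynu* went from 1.73 to 2.59, and in the genotype comparison *Tph1* ranged from -0.36 to 0.05. With the fold minimum lowered to a difference of 25%, 1 enzyme was called higher in ML cells (*Aoc1*) and 1 lower (*Kynu*), where 11.4% of all 15157 genes were called higher and 5.49% lower.

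Over all genes in ML cells, 434 were called higher and 238 lower. A minimum of 20 UMIs gave 812 and 486, one of 200 UMIs 138 and 62, a difference of 25% gave 1724 and 832, and a fold of 2 gave 57 and 56. Leaving out 1 library gave 321 to 703 higher and 153 to 372 lower, the highest of each without mutant library B and the lowest number of lower calls without WT library B. Depth limits *Ddc*, *Maob* and *Kynu* most, which had 25, 97 and 326 UMIs in all.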
